A study of Homo sapiens with 3 samples.

Results

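Wide 8-oxodG peaks were the 1234 regions of at least 1 kb among the 23641 peaks of a genome-wide map of oxidised guanine, taken outside centromeric and variable heterochromatin. A peak was counted as wide when its listed length reached 1000 bp and its midpoint lay outside 3 classes of cytogenetic bands of the human build hg18. These classes are acen (centromeric), gvar (variable heterochromatin) and stalk (short arms of acrocentric chromosomes). Another 80 peaks of this length lay inside such bands and were left out, and the 21990 shorter peaks outside them served for comparison. The members were chosen by the length of the called peak, so length, pileup, fold enrichment and background, which come from the same peak call, are given as descriptions only.

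The map was made in G0-arrested MCF10A cells, that is, in cells resting outside the cell cycle. MCF10A is an established line from human breast epithelium that does not form tumours. Cells were grown for 48 h in DMEM-F12 with 5% horse serum, without treatment. The labels do not say how arrest was reached. Genomic DNA was sonicated and precipitated overnight with an antibody against 8-oxodG (AB5830, Millipore). The 3 samples, of which 2 came from experiment 1 and 1 from experiment 2, form 1 group and were combined by the authors in 1 peak list. No second condition, input or control antibody was analysed here, and the sources used here give no read depth. With no value per sample there is no replicate error and no test between groups, and intervals below are exact binomial 95% intervals that cover counting error only.

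8-Oxo-7,8-dihydro-2'-deoxyguanosine (8-oxodG) forms when reactive oxygen species attack guanine, the base most easily oxidised in DNA. It can pair with adenine as well as with cytosine, and it is removed mainly by the glycosylase OGG1 in base excision repair. In an immunoprecipitation map a peak is a stretch where antibody-bound fragments pile up above a local background. Its summit is the base of highest pileup, and a long peak can hold more than a single rise. No genome of build hg18 was at hand, so no peak sequence is printed, and no peak was assigned to a gene.

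Wide peaks made up 5.31% of the 23224 peaks outside the left-out bands (95% interval 5.03 to 5.61) but 15.1% of the bases that these peaks covered, or 1.85 Mb. Their lengths ranged from 1000 to 22102 bp, with a median of 1254.5 bp and quartiles of 1098 and 1557.75 bp. Most were close to the limit, since 880 were under 1500 bp, 220 from 1500 to under 2000 bp, 126 from 2000 to under 5000 bp and 8 longer. The limit did not fall in a gap of the distribution. The first 10 lengths from 1000 bp up held 35 peaks, and the 10 lengths below held 47.

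Just inside, at 1000 bp, chr10:23659848-23660847 in 10p12.2 had a pileup of 31 fragments, chr11:1333887-1334886 in 11p15.5 a pileup of 116, and chr17:67696403-67697402 in 17q24.3 a pileup of 33. Just outside, chr17:74975860-74976858 (999 bp, 17q25.3) had 54 fragments, chrX:3256686-3257684 (999 bp, Xp22.33) 125 and chr1:30443082-30444079 (998 bp, 1p35.2) 110. Values inside and outside overlapped.

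Wide peaks were taller and stood on more background than narrower ones pooled over all lengths. Median pileup at the summit was 57.5 fragments (95% interval of the median 56 to 59), with quartiles of 42 and 80, against 24 in narrower peaks, with quartiles of 16 and 39. The background at the summit, which is (pileup + 1) / fold enrichment − 1, had a median of 2.45 fragments (2.36 to 2.52), which was 2.6 times the 0.944 of narrower peaks. It was at least 2 fragments in 64.5% of wide and 11.1% of narrower peaks. Fold enrichment in the list has a lower limit, so by this formula a low pileup cannot have a high background. Pileups of 10 to 19, held by 8272 narrower and 12 wide peaks, could not reach 2 fragments. The contrast in background over all peaks is therefore partly set by pileup. Fold enrichment, the authors' value with its decimal point restored, differed less, with medians of 15.7 (15.1 to 16.3) and 11.5. All 3 medians were higher in wide than in narrower peaks on each of the 23 chromosomes with peaks. Against the peaks just below the limit the difference was smaller or absent. From 800 to under 1000 bp the median pileup was 53 fragments (51 to 55), overlapping the 55 (53 to 57) of wide peaks under 1500 bp, while the background was 1.89 (1.73 to 1.92) against 2.36 (2.20 to 2.52). The median fold enrichment was not highest in wide peaks, since it was 16.8 (15.9 to 18.0) from 800 to under 1000 bp and 19 (18.4 to 19.8) from 600 to under 800 bp. It was 13.8 from 400 to under 600 bp and 8.83 below 400 bp.

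**Figure D1:**
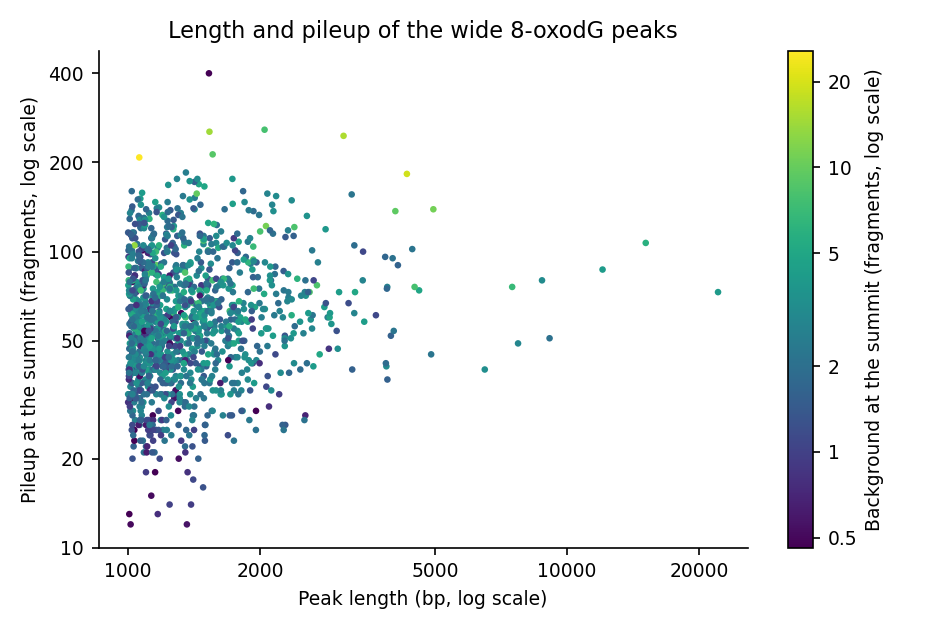
Each point is 1 of the 1234 wide peaks, with its length in bp and its pileup at the summit in fragments, both on log axes, and its background as colour. Below 1500 bp pileup spreads from 12 to 208 fragments, the single peak at 400 fragments is 1528 bp long, and the 8 peaks of at least 5 kb lie between 40 and 107 fragments.

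The median pileup of wide peaks was 55 fragments below 1500 bp, 63 from 1500 to under 2000 bp, 67 from 2000 to under 5000 bp and 74.5 in the 8 longest.

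At a given pileup, wide peaks were the ones with the higher background. Among peaks of 50 to under 70 fragments, 356 of 2334 were wide (15.3%), and their median background was 2.83 fragments against 1.32 in the narrower ones, so that their median fold enrichment was 15.5 against 25. The share that was wide in that pileup class was 2.74% (1.54 to 4.48) at a background under 1 fragment and 45% (39.8 to 50.4) at 3 or more. The median background of wide peaks was above that of narrower ones in all 8 pileup classes, and their median fold enrichment was lower in 7 of them, the exception being pileups under 20, with 12 wide peaks. Background is computed from pileup and fold enrichment and is not an independent measurement.

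**Figure D2:**
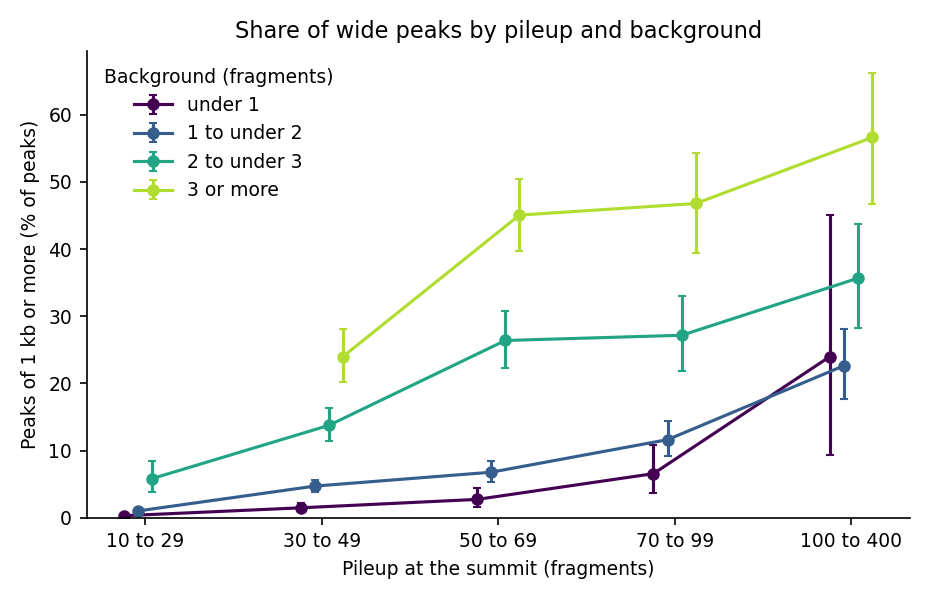
The vertical axis is the percentage of peaks that are 1 kb or longer, by class of pileup at the summit (horizontal axis, fragments) and of background (lines), with exact binomial 95% intervals and classes of at least 20 peaks. In pileups of 30 to under 100 the share rises with each class of background. The intervals of the classes under 1 and 1 to under 2 overlap at 70 to 99 and at 100 or more fragments.

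The tallest wide peak, chr14:102441077-102442604 in 14q32.32, had a pileup of 400 fragments on a background of 0.460, a fold enrichment of 275 and a length of only 1528 bp. Its fold and background are less certain, since it alone missed the relation used to restore decimal points. The next 4 by pileup were neighbours in pairs. In 16p11.2, chr16:33861512-33863557 and chr16:33864831-33866362 reached 258 and 254 fragments on backgrounds of 7.89 and 14.6, with 1273 bp between them. In 2q21.2, chr2:132743000-132746096 and chr2:132740240-132741797 reached 246 and 213 on 15.6 and 8.96, with 1202 bp between them. Pileups of 208 at chr7:61606139-61607198 (7q11.21), 185 at chr8:9665899-9667252 (8p23.1), 183 at chr16:33772105-33776422 (16p11.2), 176 at chr16:27788021-27789748 (16p11.2) and 176 at chr19:53592209-53593500 (19q13.32) completed the 10 tallest. Of the 100 peaks of highest pileup outside the left-out bands 43 were wide, and of the 100 of highest fold enrichment 21.

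High pileup came with very different backgrounds. The background was highest at the peak in 7q11.21, with 25.7 fragments and a fold enrichment of 7.83, followed by the 183-fragment peak in 16p11.2 at 19.3 and a fold of 9.04. The peaks at 15.6 in 2q21.2 and 14.6 in 16p11.2, named above, and chr8:142952865-142953898 in 8q24.3 at 13.7 completed the highest 5. At the other end, 11 wide peaks had a background under 0.47, near the lowest of the list. The lowest 5 by the rule, all at 0.460 and differing from other members only in later digits, were chr19:1115217-1116249 (19p13.3, pileup 23), chr9:135523052-135524203 (9q34.2, 18), chr12:123591354-123592480 (12q24.31, 25), chr16:87786335-87787346 (16q24.3, 32) and chr2:70514880-70515885 (2p13.3, 13).

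The longest members were not the tallest. The longest, chr10:42110383-42132484 in 10q11.21, spanned 22102 bp with a pileup of 73, and its midpoint lay 0.0214 Mb from the edge of a left-out band. Next came chr20:29279915-29295037 in 20q11.21 (15123 bp, pileup 107) and chr10:18890393-18902449 in 10p12.33 (12057 bp, pileup 87). They were followed by chr6:161190202-161199331 in 6q26 (9130 bp, 51), chr10:18881484-18890258 in 10p12.33 (8775 bp, 80) and chr5:1094241-1101978 in 5p15.33 (7738 bp, 49). The remaining 4 of the 10 longest were chr20:29267672-29275174 in 20q11.21 (7503 bp, 76), chr1:53333710-53340207 in 1p32.3 (6498 bp, 40), chr1:222265827-222270787 in 1q42.11 (4961 bp, 139) and chr1:226321936-226326839 in 1q42.13 (4904 bp, 45). Of these 10, 3 lay within 1 Mb of a left-out band and 7 lay more than 19 Mb from any.

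The summit of a wide peak seldom sat at its centre. It lay between 25% and 75% of the length in 981 of 1234 wide peaks, or 79.5% (77.1 to 81.7), against 97.6% of narrower ones, and the share was lower in wide peaks on all 23 chromosomes. Only 13.7% of wide peaks had the summit within 45% to 55% of the length, against 38.1% of narrower peaks. In steps of 10%, each step from 20% to 80% of the length held 13.1% to 17.3% of summits. The steps from 30% to 40% (16.9%, 14.8 to 19.1) and from 60% to 70% (17.3%, 15.3 to 19.6) were the fullest, and their intervals overlapped those of the steps between them. Narrower peaks had 33.6% and 32.1% from 40% to 50% and from 50% to 60%. Of the wide peaks 628 had the summit left of centre (50.9%, 48.1 to 53.7), an interval that includes 50%.

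**Figure D3:**
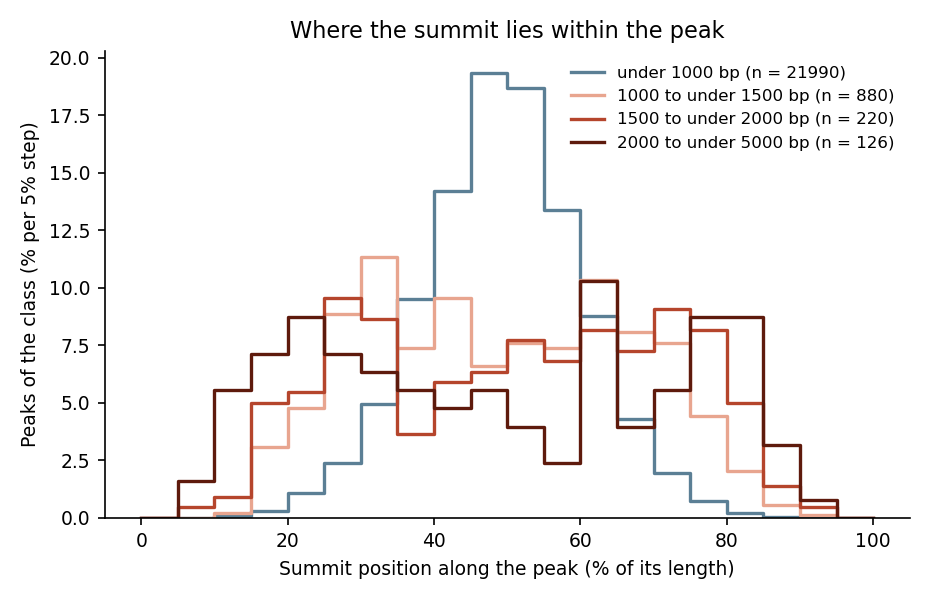
The horizontal axis is the summit's place along the peak as a percentage of its length, and the vertical axis the percentage of peaks of a length class in each 5% step. Narrower peaks crowd around the centre, while the 3 classes of wide peaks spread outward, most of all from 2000 to under 5000 bp.

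Off-centre summits were more frequent in longer peaks. The share between 25% and 75% was 84.8% (82.2 to 87.1) below 1500 bp, 73.6% (67.3 to 79.3) from 1500 to under 2000 bp, 55.6% (46.4 to 64.4) from 2000 to under 5000 bp and 37.5% (3 of 8) in the longest. Below the limit it was 90.4% (88.4 to 92.1) from 800 to under 1000 bp and 96.2% from 600 to under 800 bp, so the limit did not mark a break. In bases, the summit was a median of 435 bp from the nearer edge in wide peaks, with quartiles of 344 and 535 bp, and 183 bp in narrower ones. Within 200 bp of an edge there were 31 summits of wide peaks (2.51%). Height went with the position too, since 89.6% of the 154 wide peaks of 100 to under 150 fragments had the summit between 25% and 75%, and 70.8% of the 144 with 30 to under 40 fragments.

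The 5 members with the most eccentric summits were of several kinds. In chr20:29267672-29275174 (20q11.21, 7503 bp) the summit lay at 8.18% of the length, and in chr19:43068843-43072021 (19q13.13, 3179 bp, pileup 67) at 8.40%. In chr11:2024021-2027918 (11p15.5, 3898 bp, pileup 37) it lay at 91.3%, with the next peak 174 bp away. In chr5:34020650-34021817 (5p13.3, 1168 bp) it lay at 91.1%, 104 bp from the edge, at a pileup of only 13. In chr1:7480719-7483045 (1p36.23, 2327 bp, pileup 39) it lay at 9.37%.

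Wide peaks had closer neighbours than narrower peaks pooled over all lengths. The gap from edge to edge to the nearest other peak of the whole list had a median of 13.8 kb (12.2 to 15.5) for wide and 30.5 kb (29.7 to 31.3) for narrower peaks. Another peak lay within 10 kb of 522 of 1234 wide peaks, or 42.3% (39.5 to 45.1), and of 25.2% (24.6 to 25.8) of narrower ones. Within 1 kb the shares were 12.3% and 5.03%, and within 200 bp 3.97% and 1.56%. A neighbour within 10 kb on each side was found for 9.16% and 3.35%. By length the gap differed little across the limit, with medians of 16.1 kb (14 to 18.2) from 800 to under 1000 bp and 14.8 kb (12.9 to 16.3) in wide peaks under 1500 bp. It was 6.16 kb (3.75 to 10.9) from 2000 to under 5000 bp, and among narrower peaks 21.1 kb from 600 to under 800 bp, 31.6 kb from 400 to under 600 bp and 36.5 kb below 400 bp.

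**Figure D4:**
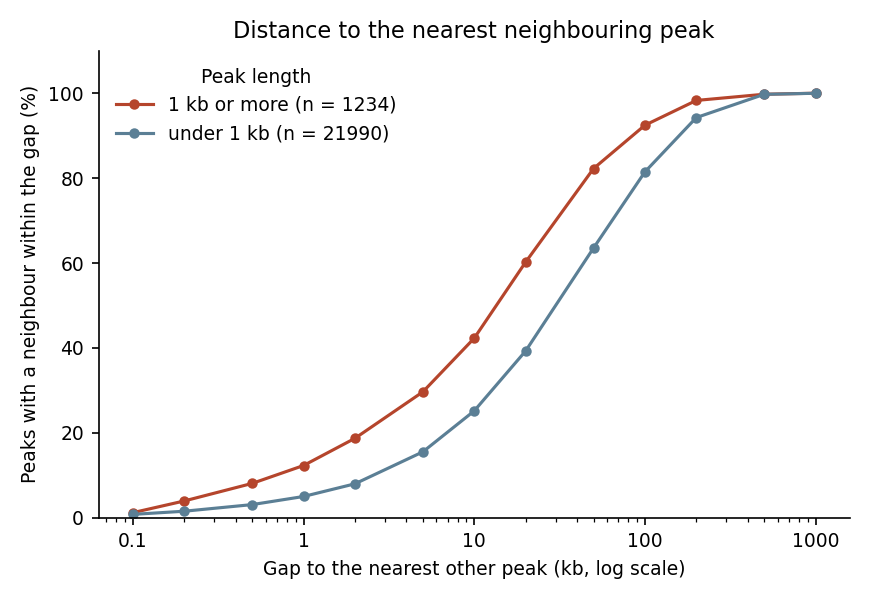
The curves give the percentage of peaks whose nearest other peak lies within the gap on the horizontal axis (kb, log scale). The curve of the 1234 wide peaks runs above that of the 21990 narrower ones, with 42.3% against 25.2% at 10 kb and 82.3% against 63.5% at 50 kb.

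This difference was not found everywhere. The share with a neighbour within 10 kb was higher in wide peaks on 21 of 23 chromosomes. On chromosome 19, where peaks are dense, it was 60.1% for wide and 60.2% for narrower peaks, and on chromosome 18 it was 7.14% of 14 wide peaks against 16%. By pileup, the shares were 56.2% and 24.9% at 20 to under 30 fragments but 41.6% and 41.9% at 100 to under 150. By stain class, the share was lower in wide peaks in gpos75 bands, at 13% of 46 against 15.7%. In terminal bands, where peaks are dense, the shares were 50.9% and 39.5%, and elsewhere 38.4% and 23.5%.

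The nearest neighbours of wide peaks were wide more often than those of narrower peaks, but most were under 1 kb. The nearest peak was itself 1 kb or longer for 172 wide peaks (13.9%, 12.1 to 16) and for 4.97% of narrower ones. Where the neighbour lay within 1 kb the shares were 34.9% of 152 and 8.78% of 1105. The median length of the nearest peak was 516 bp for wide peaks and 450 bp for narrower peaks pooled over all lengths. From 800 to under 1000 bp it was 499 bp (485 to 519). In wide peaks under 1500 bp it was 508 bp (487 to 525), an overlapping interval. At the other extreme, chr2:89932067-89934933 in 2p11.2 had its nearest other peak 980623 bp away. That peak was chosen after its value was seen.

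Joined through gaps of at most 1 kb, 152 wide peaks fell into 118 runs together with 113 narrower peaks. In 23 runs there were at least 2 wide peaks, and in 4 at least 3. Adjacent wide peaks less than 1 kb apart numbered 32 pairs. The 8 pairs with the smallest gap were in 20q11.21 (55 bp), 16p11.2 (70 bp), Xp21.2 (102 bp), 6q26 (115 bp), 11p15.5 (116 and 123 bp), 10p12.33 (134 bp) and again 6q26 (140 bp). The pair in 16p11.2, chr16:32250410-32251471 and chr16:32251542-32254075, stood apart by its low background of 0.535 and 0.692 fragments. In the others the background was 1.57 to 7.86.

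The runs below were picked for their span after the values were seen. In 20q11.21, 3 wide peaks of 7503, 4496 and 15123 bp followed each other over 27366 bp with gaps of 189 and 55 bp, at pileups of 76, 76 and 107. In 10q11.21, the longest peak and one of 4604 bp covered 26706 of 26906 bp, at pileups of 73 and 74 and backgrounds of 4.06 and 4.88. In 10p12.33, 19.9 Mb from any left-out band, peaks of 8775 and 12057 bp covered 20832 of 20966 bp, with pileups of 80 and 87. Peaks covered nearly all of each of these runs. Pileups were close to each other in 10q11.21 and 10p12.33, and in 20q11.21 the third peak was higher than the other two.

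The run with the most wide peaks lay in 11p15.5, the band that also carries the imprinted genes H19 and IGF2. It held 9 peaks over 24863 bp, chr11:2019357-2044219, of which 7 were wide, with lengths of 1191 to 4030 bp. From left to right the 7 had pileups of 56, 37, 52, 62, 53, 54 and 71 fragments and backgrounds of 1.57 to 2.83. In Xp21.2 a run of 5 peaks, all wide, spanned 12601 bp from chrX:30722075-30734675. Its pileups were 23, 26, 34, 41 and 42, low for wide peaks, and fold enrichment was 7.49 to 14.4. A run of 7 peaks in Xq25, 4 of them wide, spanned 11489 bp at pileups of 30 to 92. In 6q26, runs of 2 wide peaks each, chr6:161181617-161187245 and chr6:161188279-161199331, lay just over 1 kb apart, at pileups of 26 to 51.

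Wide peaks lay mostly in lightly stained chromosome bands. Giemsa-negative bands are rich in genes and in G and C and replicate early, while the darkest class, gpos100, is poor in genes and replicates late. Of wide peaks 884, or 71.6% (69 to 74.1), lay in Giemsa-negative bands, against 51.2% (50.5 to 51.8) of narrower peaks, in bands that make up 45.6% of the sequence. The share was higher in wide peaks on all 23 chromosomes. By pileup it was higher in 7 of 8 classes, and at 150 or more fragments it was 57.1% of 28 wide against 68.8% of 32 narrower peaks. From 800 to under 1000 bp it was 64.2% (61.3 to 67.1), between that of wide peaks under 1500 bp, 71.8% (68.7 to 74.8), and the 56.1% from 600 to under 800 bp. In the 2 darkest classes together, gpos75 and gpos100, there were 76 wide peaks (6.16%) and 23.4% of narrower ones.

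Wide peaks made up 7.29% of all peaks in gneg and 6.85% in gpos25, whose intervals overlap, 3.25% in gpos50, 1.76% in gpos75 and 1.15% (0.775 to 1.63) in gpos100. Their density was 0.696 per sequenced Mb in gneg, 0.764 in gpos25, 0.283 in gpos50, 0.115 in gpos75 and 0.0601 in gpos100. Between gneg and the 2 darkest classes this was a ratio of 8.25 for wide peaks and 1.55 for narrower ones. Median background over all peaks moved with it, from 1.10 fragments in gneg and gpos25 to 0.849 in gpos100, and its part in the difference was not tested.

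The 30 wide peaks in gpos100 bands were few, and 6 of them were in Xq25, in the run described above and in a pair at chrX:129711358-129715345. Another 4 were in 10q23.1, with lengths of 1015 to 1431 bp and pileups of 61 to 92. The steepest in this class, chr11:36467757-36468833 in 11p12, had a pileup of 101 on a background of 0.460 and a fold enrichment of 69.9, the highest but one among wide peaks. A neighbour within 10 kb was present for 50% of these 30 and for 13.5% of narrower peaks in the class, and each of the 6 in Xq25 had one within 1 kb.

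Chromosome ends held many of the wide peaks. The 41 terminal bands, the outermost stained band of each arm with sequence, make up 5.97% of the sequence and held 385 wide peaks, or 31.2% (28.6 to 33.9), against 10.7% (10.3 to 11.1) of narrower peaks. The share was higher in wide peaks on 22 of 23 chromosomes, and on chromosome 15 no terminal band held one. By length it was 29.4% (26.4 to 32.6) in wide peaks under 1500 bp, 23.4% (20.9 to 26) from 800 to under 1000 bp and 16.2% (14.9 to 17.6) from 600 to under 800 bp. The density of wide peaks was 2.31 per Mb in terminal bands and 0.324 elsewhere, a ratio of 7.14, and the ratio was 1.88 for narrower peaks. Within Giemsa-negative bands alone, 14.4% (13.1 to 15.9) of peaks in terminal bands and 5.32% (4.88 to 5.79) in the others were wide. Median background over all peaks was 1.23 fragments in terminal bands and 0.975 elsewhere, and the median pileup was 30 and 24. Their part in the difference was not tested. At pileups of 150 or more, terminal bands held 10.7% of 28 wide and 12.5% of 32 narrower peaks.

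In height and length, terminal and other wide peaks overlapped. Their median pileup was 55 fragments (52 to 58) and that of the rest 58 (56 to 61), and their median lengths were 1281 bp (1241 to 1348) and 1244 bp (1221 to 1271). Along the chromosome, the share of peaks that were wide was 13.6% (10.9 to 16.6) within 1 Mb of the nearer end and 17.1% (14.4 to 20) between 1 and 2 Mb. It was 11.2% at 2 to 5 Mb, 7.58% at 5 to 10 Mb, 4.93% at 10 to 20 Mb, 3.56% at 20 to 50 Mb and 2.30% beyond. The intervals of the 2 outermost classes overlap.

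**Figure D5:**
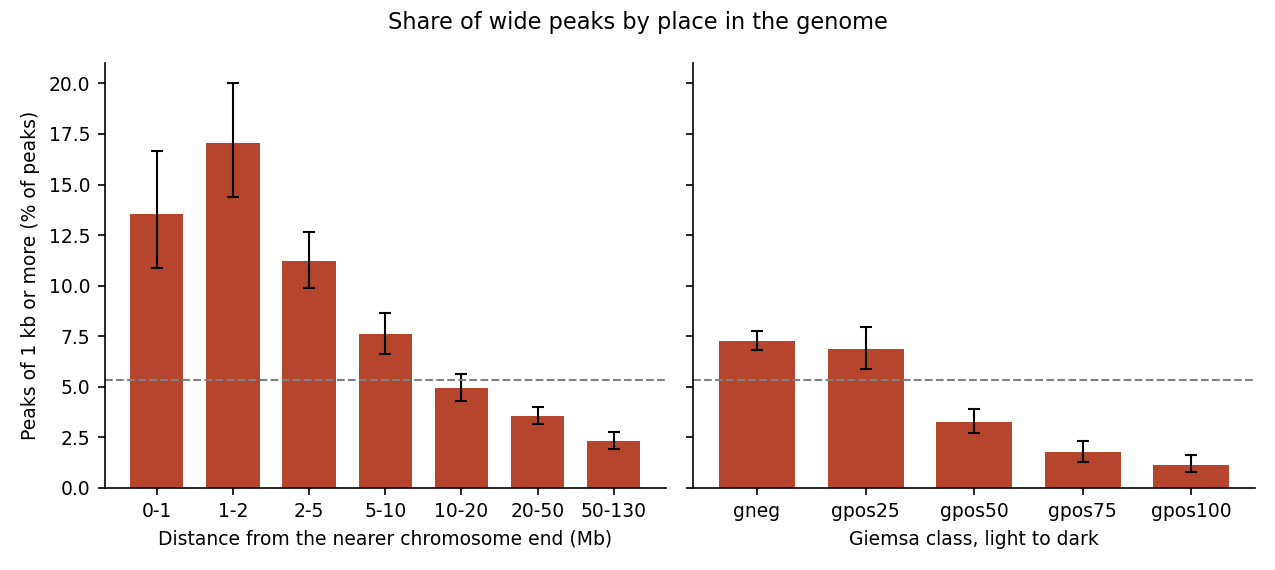
Bars give the percentage of peaks that are 1 kb or longer, by distance from the nearer chromosome end in Mb (left) and by Giemsa class from light to dark (right), with exact binomial 95% intervals and a dashed line at the 5.31% of all peaks. The share is highest from 1 to 2 Mb, at 17.1%, and lowest in gpos100 bands, at 1.15%.

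The 5 bands with the most wide peaks were 19p13.3 with 39, 2q37.3 with 28, 11p15.5 with 23, 19q13.33 with 22 and 16p11.2 with 21. The first 3 are terminal bands, and 16p11.2 borders the centromeric bands of chromosome 16. Together these 5 held 10.8% of wide peaks in 0.926% of the sequence. Per sequenced Mb they had 5.66, 4.94, 8.41, 5.79 and 3.13 wide peaks, against 0.443 over all 784 stained bands. Wide peaks of 19p13.3 had a median background of 1.42 fragments, and those of 2q37.3 had 3.15. In 440 stained bands, or 56.1%, there was none.

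Chromosome ends were uneven. In 11p15.5 23 of 80 peaks were wide (28.8%), in 2q37.3 28 of 105 (26.7%), in 14q32.33, the band of the immunoglobulin heavy chain genes, 17 of 64 (26.6%), and in 5p15.33, the band of the telomerase gene TERT, 20 of 114 (17.5%). In 1q44 1 of 42 was wide, and in 20p13 2 of 70. The terminal bands without a wide peak were 15q26.3 with 28 peaks, 3p26.3 with 13, 18p11.32 with 12 and 9p24.3 with 8, which by counting error allow shares of up to 12.3%, 24.7%, 26.5% and 36.9%.

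Between chromosome arms the share of wide peaks ran from 0.755% to 14.6%. Of the 40 arms with at least 100 peaks, the highest were 19p with 74 of 506 (14.6%, 11.7 to 18.0), 16p with 9.72%, 16q with 8.67%, 19q with 8.66% and 5p with 8.38% (5.73 to 11.7). The lowest were 3p with 4 of 530 (0.755%, 0.206 to 1.92), 18q with 1.83%, 9p with 1.93%, 5q with 2.09% and 4q with 2.16% (1.24 to 3.48). The intervals of the highest 5 overlap in part, and so do those of the lowest 5, but the highest and lowest do not overlap each other. The median background over all peaks was 1.01 fragments on 19p and 0.881 on 3p, but 1.35 on 16p and 1.42 on 16q.

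Raised background on whole arms did not go with a high share throughout. The arms 8p, 8q, 16p, 16q, 19q, 20p and 20q have the highest medians of background, 1.35 to 1.57 fragments, and together 6.94% (6.18 to 7.77) of their peaks were wide, against 4.97% (4.67 to 5.29) elsewhere. Yet 2.78% were wide on 20p and 4.22% on 8p. More copies of a region in the cells and more 8-oxodG per copy cannot be told apart in this list.

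Near the left-out bands wide peaks were also frequent. Of peaks within 0.5 Mb of a band of class acen, gvar or stalk 16 of 153 were wide (10.5%, 6.10 to 16.4), from 0.5 to 1 Mb 21 of 149 (14.1%, 8.94 to 20.7), and from 1 to 2 Mb 18 of 313 (5.75%). Beyond that the share lay between 4.23% and 6.59%. The 55 wide peaks within 2 Mb had a median background of 2.36 fragments, near the 2.45 of the others, and 12 of them (21.8%) reached 5 fragments, against 6.96% of the other wide peaks. Most were in 16p11.2, with 11, and in 13q12.11, 17p11.2 and 19p13.11, with 6 each.

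Lists of bands set by name, with the positions of their genes not checked on hg18, are described by their counts beside the 5.31% of all peaks. In 11 gene-rich terminal bands 157 of 915 peaks were wide (17.2%, 14.8 to 19.8), and each of the 11 bands was above the overall share. Over all terminal bands, these included, 385 of 2729 peaks were wide (14.1%, 12.8 to 15.5), an overlapping interval. In 12 bands known for large segmental duplications, blocks of near-identical sequence where read placement is uncertain, the count was 46 of 399 (11.5%, 8.57 to 15.1). It was above the overall share in 8 of 12, and 16p11.2 alone gave 21 of the 46. The KRAB zinc finger clusters of chromosome 19, which encode a family of transcriptional repressors, had 40 of 560 (7.14%, 5.15 to 9.60) in 7 bands. That interval includes the overall share, and on chromosome 19 as a whole 143 of 1303 peaks were wide (10.97%, 9.33 to 12.8).

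Other lists lay near or below the overall share. The list of common fragile sites, which are prone to breaks when replication is slowed, had 19 of 484 (3.93%, 2.38 to 6.06), in 5 of 15 bands. Most of the 19 were in 6q26, with 6 of 32 (18.8%), and in 16q23.2, with 7 of 60 (11.7%). The 6 in 6q26 include both runs of 2 wide peaks described above, so they are not 6 separate places. The HOX clusters, which pattern the body axis, had 2 of 123 (1.63%, 0.198 to 5.75), the olfactory receptor clusters 4 of 185 (2.16%, 0.592 to 5.44) and the histone clusters 0 of 57, which by counting error allows a share of up to 6.27%. Keratin gene clusters together with the epidermal differentiation complex, whose genes build epithelial structure, had 5 of 131 (3.82%, 1.25 to 8.68). The band 12q13.13, with 0 of 48 peaks wide, is counted both there and among the HOX clusters.

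For bands tied to breast cancer or to this line the intervals include the overall share. Bands of breast oncogenes such as MYC and ERBB2 had 12 of 208 (5.77%, 3.02 to 9.86). Those described as gained in MCF10A had 25 of 321 (7.79%, 5.10 to 11.3). The band 8q24.21, with 2 of 49 peaks wide, is counted in both of these lists. The band described as lost, 9p21.3, which holds the tumour suppressor CDKN2A, had 1 of 14. That peak, chr9:20962305-20963705, was 1401 bp long with a pileup of 22 on a background of 1.26.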

How the data were processed

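The submitters' processing notes name BWA, SAMtools, bedtools and build hg18, without versions or roles. The sources used here state neither a peak caller nor its control, nor how the 3 samples were combined. Per the file headers, the deposited list gives each peak's length, summit, pileup signal, fold enrichment, p-value and q-value (the last 2 as −log10). The deposited fold, p and q had lost their decimal points, which were restored from the Poisson relation between pileup, fold and p. The relation was met within 0.01 for 23640 of 23641 peaks, and for 100% of 1885 simulated rows the digits were returned. The other peak is that of pileup 400. No score or other deposited unit was used.

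Bands came from circlize 0.4.16 and sequenced contigs from IRanges 2.36.0 (R 4.3.3), and 0 peaks passed a chromosome end of hg18. Bands are assigned by midpoint. Gaps run from edge to edge to any peak of the list. The listed bands 19p12 and 11q11 are of left-out classes and were not counted. Python 3.11.15, numpy 2.4.6, pandas 2.3.3, scipy 1.17.1 and matplotlib 3.10.9 were used. Intervals of medians are binomial, from order statistics. Fold, p and q are the authors' values with decimal points restored, and serve only to describe or filter peaks within the list.

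No test was run, because the list holds no value per sample. Named peaks were the 10 longest, 10 tallest, 5 of highest and lowest background, 5 with the most eccentric summits, 8 closest pairs, the 5 bands with most members, the 5 highest and lowest arms of at least 100 peaks and 3 peaks on each side of the limit. Peaks named otherwise were chosen after their values were seen. The members, the band lists and the arms of raised background were chosen with earlier results of these data known.

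Alternatives changed the minimum length, left out no band, joined peaks within 1 kb, kept peaks of at least the median fold enrichment, or left out arms of raised background, chromosome 19 or peaks within 2 Mb of a left-out band.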

Additional observations from a re-analysis of the deposited data

How the results depend on the processing

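Against narrower peaks, all 59 alternative values kept the direction given in the report, and of 67 alternatives 39 stayed within the main interval (for the count, within 1.5 times). Values outside it follow, in the order given by each setting. With a minimum of 800 bp there were 2313 wide peaks, with a median pileup of 55, background of 2.20, 84.6% of summits between 25% and 75% of the length, 68.2% in Giemsa-negative and 27.5% in terminal bands. With 1500 bp there were 354, with a median pileup of 63, fold of 16.7, background of 2.61, 66.4% of summits in that range, 46.3% with a neighbour within 10 kb and 35.6% in terminal bands. With peaks within 1 kb joined, the median pileup was 54 and background 2.17, and the shares were 62.9% (summit), 35.9% (neighbour), 68.5% (Giemsa-negative) and 28.1% (terminal). Joining makes longer peaks by construction and removes the closest neighbours. Among peaks of at least the median fold enrichment, the median pileup was 66, fold 19.8 and background 2.17, by construction of the filter. Without arms of raised background they were 54 (pileup) and 2.36 (background). That background equals the lower limit of its interval, 2.36, and was counted as outside only through later digits. With no band left out, 67.3% were in Giemsa-negative bands. Summits in the central 1/3 of the length were 51.5%, and neighbours within 5 and 50 kb 29.7% and 82.3%, by construction. Where no construction is named, the cause was not tested. Leaving out chromosome 19, or peaks within 2 Mb of a left-out band (chosen after seeing the data), moved no value outside its interval.

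No paired analysis was possible because the 3 samples are combined in 1 list, and for the same reason none was left out in turn. The depth per sample is unknown, so no value here has a depth behind it.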
